A study of Arabidopsis thaliana with 6 samples.

Results

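Of 42 nuclear photosystem and light-harvesting genes of Arabidopsis thaliana, 28 were lower in a prmt5 mutant than in the wild type, where 15.4% of all genes tested were. Of 67 tested introns of these genes 22 had more reads relative to their gene in prmt5, where 21.6% of all introns tested did. Their median log2 change (prmt5 over WT) was smaller, 0.21 against 0.37 over all introns tested. Their median count was higher, 644.5 against 13.2, so the shares of called introns are not measured at like depth. At a minimum mean of 20 counts 27 of the 67 rose, beside 6363 of 18246 over all genes. Measured against library size, 7 of the 67 rose and 12 fell, beside 13278 and 600 of 53291 over all genes. The 42 genes encode subunits of photosystem I (PSI) and photosystem II (PSII) and of their antennae, and were chosen by function from their locus identifiers and compared for transcript level and intron retention. They are 42 of the 33602 genes in the count table: 6 LHCA genes (antenna of PSI), 14 LHCB genes (antenna of PSII), 12 PSA genes (PSI subunits) and 10 PSB genes (PSII subunits). Whole 9-day-old seedlings of the wild type Col-0 (WT, 3 libraries) and of a prmt5 mutant of the same ecotype (3 libraries) had been grown in continuous white light at 22 °C, and polyadenylated RNA was sequenced. The prmt5 allele is not given in the sources used here, no agent was applied to either genotype, and RNA came from whole plants with all tissues pooled.

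Photosystems are chlorophyll-protein complexes of the thylakoid membrane that turn light into electron flow. The LHCA and LHCB proteins bind chlorophyll and pass excitation energy to them, while the PSA and PSB proteins build the reaction centres, dock the electron carriers and carry out water oxidation. These nuclear genes are among the most strongly transcribed in green seedlings and are known to respond to light and to the circadian clock. PRMT5 is a protein arginine methyltransferase whose substrates include Sm proteins of the spliceosome, and in Arabidopsis it is known for its effects on splicing and on the clock.

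Gene counts summed to between 38564256 and 75461631 per library. PRMT5 itself was at 30.2, 28.7 and 31.1 CPM (counts per 1e+06 counts, after TMM scaling) in WT and at 34.7, 28.9 and 33.1 CPM in prmt5, so its level does not check the labels. WT replicate 2, the shallowest library, was the lowest of the WT libraries in 41 of the 42 genes. Without it 12 of the 14 genes that did not pass the test were called lower, all but LHCA6 and LHCB4.3. The labels do not say that libraries of a genotype came from separate cultures, so p-values measure the spread between these libraries, which may be technical. Changes are log2 ratios of prmt5 over WT with standard errors (SE) from edgeR's quasi-likelihood test, with Benjamini-Hochberg adjustment across the 22509 genes tested. An adjusted p under 0.05 is called a change.

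All 42 genes passed the expression filter, 28 fell in prmt5, 0 rose and 14 did not pass the test. Over all genes tested, 15.4% fell and 17.9% rose. All 42 fitted changes were below 0, from -0.93 for LHCB3 to -0.07 for LHCA6 with a median of -0.38, beside a median of 0.01 over all genes tested. At an unadjusted p under 0.05, 36 of the 42 were below 0 and 0 were above. Of all 22509 genes tested, 9871 passed that threshold in either direction. In 31 of the 42 genes every prmt5 library lay below every WT library, which held for 22.5% of all genes tested. Summed, the 42 genes made up 11.5%, 8.90% and 10.6% of all gene counts in WT and 7.72%, 8.15% and 7.58% in prmt5. In bulk seedlings, fewer photosynthetic cells and less of these transcripts per cell cannot be told apart. Leaving out WT replicate 2 gave 40 called genes, WT replicate 3 gave 14, prmt5 replicate 1 gave 16 and prmt5 replicate 3 gave 14. Over all genes tested in the same settings, 3783 of 22814, 2538 of 22582, 2507 of 22789 and 2776 of 22556 fell.

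**Figure D1:**
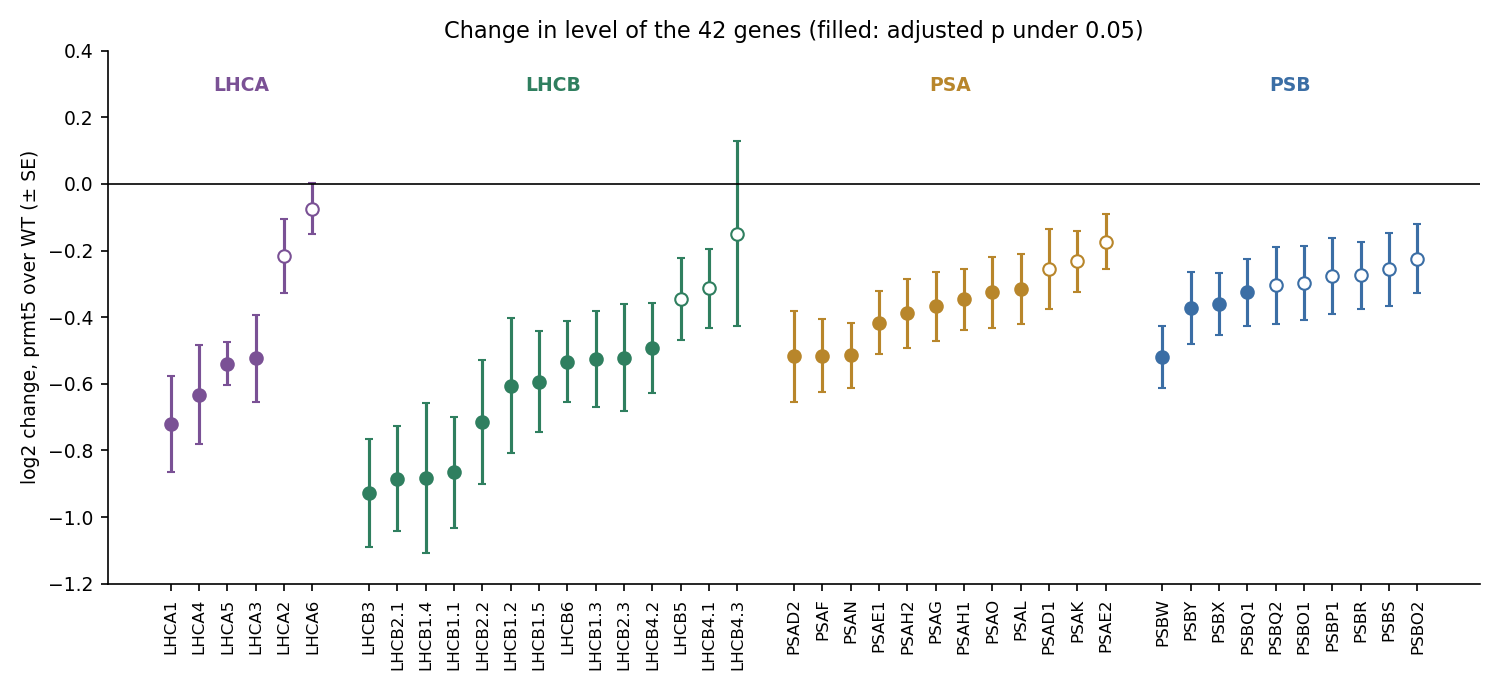
Log2 change (prmt5 over WT, ± SE, n = 3 libraries per genotype) of each of the 42 genes, ordered within the LHCA, LHCB, PSA and PSB groups; filled points passed adjusted p under 0.05. All points lie below 0, from -0.93 (LHCB3) to -0.07 (LHCA6), but LHCB4.3 turned to 0.02 when prmt5 replicate 3 was left out.

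Fitted changes were larger in the antenna groups than in the core groups, without a test of that difference. The median log2 change was -0.53 over the 6 LHCA genes and -0.56 over the 14 LHCB genes, against -0.36 over the 12 PSA genes and -0.30 over the 10 PSB genes. LHCB genes took 5.74%, 4.08% and 5.04% of all gene counts in WT and 3.43%, 3.67% and 3.38% in prmt5, so the genotypes did not overlap. PSB genes took 2.15%, 1.91% and 2.12% in WT and 1.73%, 1.80% and 1.72% in prmt5. The ratio of LHCB to PSB counts was 2.67, 2.14 and 2.38 in WT and 1.99, 2.04 and 1.97 in prmt5, again with no overlap. The ratio of LHCA to PSA counts was 0.784, 0.674 and 0.746 in WT and 0.659, 0.674 and 0.658 in prmt5, where prmt5 replicate 2 slightly exceeded WT replicate 2. These ratios are given without a test.

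**Figure D2:**
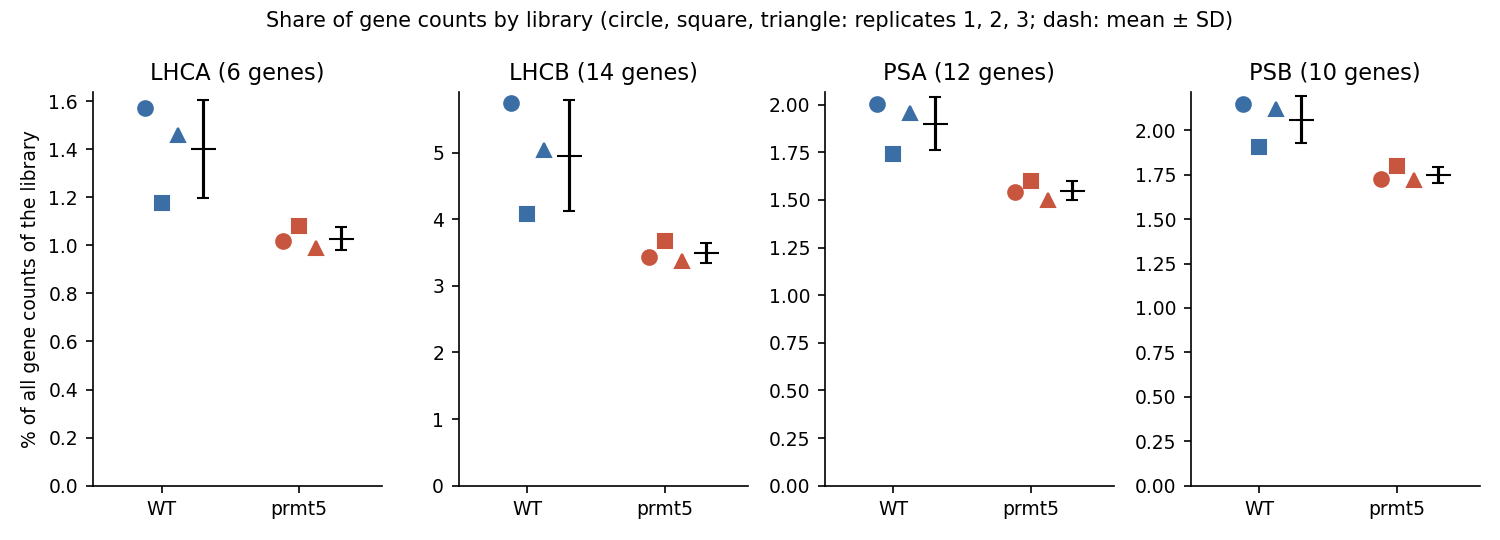
Percentage of all gene counts of a library taken by the LHCA, LHCB, PSA and PSB genes, with 1 point per library and the mean ± SD (n = 3) beside them. In each group every prmt5 library lies below every WT library, and WT replicate 2 (square) is the lowest WT library.

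Of the 6 LHCA genes, 4 fell and 2 did not pass the test. LHCA5 (AT1G45474, chr1:17179302-17180806), an antenna protein that helps to join PSI to the NADH dehydrogenase-like complex, was at 151, 151 and 163 CPM in WT and at 109, 108 and 104 CPM in prmt5. All prmt5 libraries were lower and the libraries of each genotype lay close together (log2 change -0.54, SE 0.07, edgeR adjusted p 1.4e-04). LHCA1 (AT3G54890, chr3:20339504-20341103), part of the antenna belt of PSI, was at 3940.1, 2579 and 3515 CPM in WT and at 1984, 2175 and 1932 CPM in prmt5. The genotypes did not overlap, although WT replicate 2 lay nearest to prmt5 (log2 change -0.72, SE 0.14, edgeR adjusted p 0.0034). LHCA4 (AT3G47470, chr3:17493372-17495033), the belt protein known for its far-red absorbing chlorophylls, was at 5576, 3725 and 5172 CPM in WT and at 2964, 3436 and 2931 CPM in prmt5 (log2 change -0.63, SE 0.15, edgeR adjusted p 0.0077). It had the highest level per length of the LHCA group, a mean of 3810.5 RPKM (CPM per kilobase of exon) in WT. LHCA3 also fell (log2 change -0.52). The members not called were LHCA2, another belt protein (-0.22, adjusted p 0.16), and LHCA6, which like LHCA5 links PSI to the NADH dehydrogenase-like complex (-0.07, adjusted p 0.48). Of the 42 genes 9 overlap a neighbouring gene in the table (LHCA4, LHCA5, LHCB1.5, LHCB3, LHCB4.2, LHCB6, PSAE2, PSAH1 and PSBR), and no source states that counting used strand, so reads of the neighbours may be included in their values.

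Of the 14 LHCB genes, 11 fell and 3 did not pass the test. LHCB1, LHCB2 and LHCB3 proteins form the trimers of LHCII, the main antenna, and LHCB4, LHCB5 and LHCB6 are its monomeric linkers. The 9 LHCB1, LHCB2 and LHCB3 genes all fell. LHCB3 (AT5G54270, chr5:22038273-22039568), a protein of the LHCII trimers, was at 3911, 2543 and 3509.6 CPM in WT and at 1621, 2027 and 1591 CPM in prmt5. No libraries of the genotypes overlapped (log2 change -0.93, SE 0.16, edgeR adjusted p 0.0020). LHCB2.1 (AT2G05100, chr2:1823240-1824425), one of the LHCII proteins phosphorylated during state transitions, was at 2726, 1698 and 2309.6 CPM in WT and at 1169, 1339 and 1141 CPM in prmt5 (log2 change -0.88, SE 0.16, edgeR adjusted p 0.0023). LHCB1.1 (AT1G29920, chr1:10474784-10475959) was at 4913, 2984 and 4140.0 CPM in WT and at 2129, 2427 and 2053 CPM in prmt5 (log2 change -0.87, SE 0.17, edgeR adjusted p 0.0032). In both of these genes every prmt5 library was below every WT library.

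LHCB1.3 (AT1G29930, chr1:10478005-10479048) had the highest level per length of all 42 genes, with means of 13854 RPKM in WT and 9625 RPKM in prmt5. It was at 17077, 11639 and 14674 CPM in WT and at 9662, 10367 and 10116 CPM in prmt5, without overlap (log2 change -0.53, SE 0.14, edgeR adjusted p 0.017). Its adjusted p was 0.062 and 0.051 when WT replicate 1 or 3 was left out, and 0.068 and 0.056 when prmt5 replicate 1 or 3 was. Among the linkers, LHCB4.2 and LHCB6 fell (log2 changes -0.49 and -0.53). LHCB5 (CP26) missed the threshold narrowly (-0.34, adjusted p 0.0503), as did LHCB4.1 (-0.31, adjusted p 0.064). LHCB1.2 lay just inside it (-0.61, adjusted p 0.0485), and leaving out any library other than WT replicate 2 took its adjusted p to between 0.087 and 0.12. LHCB4.3 was at 83.6, 138 and 139 CPM in WT and at 111, 133 and 80.9 CPM in prmt5, so the genotypes overlapped (log2 change -0.15, SE 0.28, adjusted p 0.72), and without prmt5 replicate 3 its change was 0.02.

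Near-identical copies share reads, so the LHCB1 and LHCB2 copies were also summed. In 8 of the 42 genes at least 5% of all 50-base stretches of the exons occur elsewhere in the nuclear genome: all 5 LHCB1 genes, LHCB2.1, LHCB2.2 and LHCA2. Summed over LHCB1.1, LHCB1.2 and LHCB1.3, the level was 26940.1, 17233 and 22521 CPM in WT and 14167, 15312 and 14676 CPM in prmt5 (log2 change -0.59, SE 0.16, edgeR adjusted p 0.014). The sum of LHCB2.1 and LHCB2.2 was 4784, 2858 and 3928 CPM in WT and 2113, 2402 and 2080.1 CPM in prmt5 (log2 change -0.81, SE 0.17, edgeR adjusted p 0.0051). Both sums were lower in every prmt5 library. With copies summed in this way, and PSA and PSB copies likewise, 23 of 33 units fell, beside 3467 of 22500 over all genes.

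Within 5 of the 8 families of copies, the share of a copy was outside the WT range in every prmt5 library. LHCB1.1 made up 18.2%, 17.3% and 18.4% of the LHCB1.1 to LHCB1.3 counts in WT and 15.0%, 15.9% and 14.0% in prmt5. PSAD1 made up 65.8%, 65.9% and 64.3% of the PSAD counts in WT and 71.1%, 68.0% and 69.2% in prmt5. LHCB1.4, LHCB2.1 and PSAE1 lost shares of 2.77, 3.11 and 2.92 percentage points of their families. The exact two-sided permutation p was 0.1 for each of these families, the smallest that 3 against 3 libraries can give, and 0.16 after adjustment over the 8 families, so no share passed the test. Shares of PSAH, PSBO and PSBQ copies had exact p of 0.4, 0.2 and 0.8.

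Of the 12 PSA genes, 9 fell and 3 did not pass the test. PSAN (AT5G64040, chr5:25628588-25629615), a lumenal subunit that assists plastocyanin, was at 1526, 1345 and 1592 CPM in WT and at 982, 1112 and 1030.3 CPM in prmt5 (log2 change -0.51, SE 0.10, edgeR adjusted p 0.0023). PSAF (AT1G31330, chr1:11214824-11216037), the plastocyanin-docking subunit, was at 2954, 2390.5 and 2846 CPM in WT and at 1779, 2042 and 1908 CPM in prmt5 (log2 change -0.52, SE 0.11, edgeR adjusted p 0.0044). PSAE1 (AT4G28750, chr4:14202758-14203961), of the stromal ridge where ferredoxin docks, was at 1609.9, 1408 and 1566 CPM in WT and at 1149.8, 1211 and 1074 CPM in prmt5 (log2 change -0.42, SE 0.09, edgeR adjusted p 0.0061). In these 3 genes the genotypes did not overlap in any library. PSAO (AT1G08380, chr1:2640813-2641828), which with PSAH and PSAL forms the docking side for LHCII, had the highest level per length of the group and was at 2438, 1929 and 2354 CPM in WT and at 1746, 1857 and 1761 CPM in prmt5. Its change was smaller (log2 change -0.33, SE 0.11, edgeR adjusted p 0.038), and leaving out any library but WT replicate 2 took its adjusted p to between 0.067 and 0.12. PSAD2, PSAG, PSAH1, PSAH2 and PSAL also fell, by 0.32 to 0.52 on the log2 scale. PSAD1, PSAE2 and PSAK did not pass the test, with log2 changes between -0.25 and -0.17.

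Of the 10 PSB genes, 4 fell and 6 did not pass the test. PSBW (AT2G30570, chr2:13019028-13020194), a small subunit that stabilises PSII-LHCII supercomplexes, was at 1724, 1508 and 1646 CPM in WT and at 1140.5, 1190.0 and 1073 CPM in prmt5, with no overlap (log2 change -0.52, SE 0.09, edgeR adjusted p 0.0016). PSBX (AT2G06520, chr2:2587729-2588358), a small membrane subunit, was at 1560.2, 1432 and 1539 CPM in WT and at 1216, 1237 and 1078 CPM in prmt5 (log2 change -0.36, SE 0.09, edgeR adjusted p 0.012; 0.062 without prmt5 replicate 3). PSBY (AT1G67740, chr1:25394068-25395154), another small subunit, was at 1143, 889.7 and 996 CPM in WT and at 709.9, 798 and 833 CPM in prmt5 (log2 change -0.37, SE 0.11, edgeR adjusted p 0.022). For PSBY the adjusted p was 0.073 and 0.057 when WT replicate 1 or 3 was left out, and 0.097 and 0.052 when prmt5 replicate 1 or 2 was. The last of the genes that fell was PSBQ1 (-0.32), of the oxygen-evolving complex. The other genes of that complex, PSBO1, PSBO2, PSBP1, PSBQ2 and PSBR, and PSBS, the sensor of thylakoid lumen acidity in photoprotection, had log2 changes between -0.30 and -0.22 that did not pass the test. PSBR had the highest level per length of the group and was at 3207, 2794 and 3308 CPM in WT and at 2566, 2557 and 2572 CPM in prmt5, which did not overlap (log2 change -0.27, SE 0.10, edgeR adjusted p 0.055).

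The windows before the gene starts of the 42 genes were searched on both strands for light- and clock-related motifs. The G-box, CACGTG, was in the 250 bases before the gene start of 17 of the 42 genes, against 6.77% of 32834 windows of all genes. The I-box, GATAAG, was in 20, against 13.1% of all windows, and the CCA1 binding sequence, AAAAATCT or AACAATCT, in 9, against 7.89%. The evening element, AAAATATCT, was in 0 of the 42 windows and in 2.12% of all windows. The G-box was in 8 of the 28 genes that fell and in 9 of the 14 not called, and the CCA1 sequence in 7 of 28 and 2 of 14. None of these motifs was in the windows of LHCB3 and LHCB2.1, the genes with the largest falls. The window of LHCB1.4, the next by size of fall, held an I-box and a CCA1 sequence. All of these are matches of letters in these windows only.

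The window of LHCB1.3, the most abundant of the 42 transcripts and a known target of CCA1, is shown as the example. It covers chr1:10477755-10478004 on the plus strand of TAIR10.1 (RefSeq sequence). Capitals mark, from left to right, CCA1 sequences starting 125 and 107 bases before the gene start and an I-box starting 60 bases before it, which do not overlap each other.
LHCB1.3 upstream: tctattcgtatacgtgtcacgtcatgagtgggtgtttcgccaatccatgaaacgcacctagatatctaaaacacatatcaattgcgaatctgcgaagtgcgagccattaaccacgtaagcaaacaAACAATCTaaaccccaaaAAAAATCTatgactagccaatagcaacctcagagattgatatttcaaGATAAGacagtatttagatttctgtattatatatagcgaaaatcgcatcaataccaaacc
CCA1 and LHY, the clock transcription factors that bind this sequence, were picked after their values had been seen. CCA1 was at 136, 112 and 139 CPM in WT and at 59.2, 73.5 and 52.7 CPM in prmt5 (log2 change -1.07, SE 0.13, edgeR adjusted p 5.0e-04). LHY was at 192, 189 and 199 CPM in WT and at 99.8, 114 and 79.3 CPM in prmt5 (log2 change -0.99, SE 0.12, edgeR adjusted p 1.9e-04). Their part in the lower antenna transcripts was not tested.

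Intron retention was measured as the count of reads in an intron divided by the count of its gene. Of the 68 introns of these genes in the table, 67 introns of 32 genes passed the count filters, 22 of them rose relative to their gene in prmt5, 0 fell and 45 did not pass the test. Over all 53291 introns tested, 21.6% rose and 0.518% fell. The median log2 change was 0.21 over the 67 introns against 0.37 over all introns tested. The median over introns of the mean count was 644.5 in these genes and 13.2 over all introns tested. With DESeq2 in place of edgeR 16 rose and 0 fell, beside 8042 and 120 of all 53291 introns. Together the tested introns took 0.969%, 1.07% and 1.04% of the gene counts of their genes in WT and 1.24%, 1.24% and 1.15% in prmt5, so that the genotypes did not overlap. Over all introns tested the same share was 4.1%, 4.54% and 4.17% in WT and 5.76%, 5.56% and 5.29% in prmt5. Relative to the median change of all introns, 9 of the 67 rose and 9 fell, beside 6621 and 1883 of all 53291 introns. With the library size in place of the gene count 7 of the 67 rose and 12 fell, beside 13278 and 600 of all 53291. Without WT replicate 1, 13 of the 67 introns rose, beside 9303 of all 53291.

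The 5' splice sites of the introns with the largest changes are shown here. Each site was scored over 3 exon bases and 6 intron bases at the junction with a position weight matrix in bits, built from 109081 annotated junctions, in which the consensus AAGGTAAGT scores 11.4 and the median of all tested introns is 6.99. Each window shows 12 exon bases followed by 18 intron bases for the 4 introns raised over 2-fold, then the 4 tested introns of LHCA2 and LHCB5 that were not called. They are RefSeq TAIR10.1 sequence, all from the plus strand, with the scored bases in capitals.
LHCA2 intron 2, chr3:22746289-22746318: ctcttggtcTTTGTGAGTatattttttttg
LHCB5 intron 2, chr4:6408546-6408575: agttgctggAGAGTAAGAcactttttcatg
LHCB5 intron 4, chr4:6408905-6408934: gtctggtttAAGGTTCTTgcctacgtctaa
LHCB2.3 intron 1, chr3:10256139-10256168: tcagagcatCTGGTTCCAacctcacactct
LHCA2 intron 1, chr3:22745777-22745806: ttcttctccAAGGTAAGCtcatctttttct
LHCA2 intron 3, chr3:22746908-22746937: acaatcttcGCTGTAAGTgtgatccaaatc
LHCB5 intron 1, chr4:6408378-6408407: ccaagtggtATGGTATGTgtcttctaaatc
LHCB5 intron 5, chr4:6409146-6409175: accaacggaTTGGTACATtactctctagtc
The sites of the raised introns scored 2.53 (LHCA2 intron 2), 4.1 and 6.10 (LHCB5 introns 2 and 4) and 3.44 (LHCB2.3 intron 1). Those scores exceeded only 4.09%, 10.9%, 34.7% and 7.25% of all tested introns. The uncalled introns scored 10.5 and 5.60 (LHCA2 introns 1 and 3) and 8.46 and 4.73 (LHCB5 introns 1 and 5). LHCA2 intron 3 and LHCB5 intron 5 thus scored below the raised LHCB5 intron 4 without being called.

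Intron 2 of LHCA2 (chr3:22746301-22746404) had the largest change. Its reads were 0.0819%, 0.107% and 0.105% of the LHCA2 count in WT and 0.390%, 0.393% and 0.335% in prmt5 (log2 change 1.94, SE 0.13, edgeR adjusted p 1.6e-15). All prmt5 libraries lay above all WT libraries, and the intron counts themselves, 184, 110 and 241 in WT, were 536, 446 and 605 in prmt5. Spliced reads across the same intron numbered 20036, 8017 and 19295 in WT and 11702, 9439 and 15685 in prmt5, so most LHCA2 reads there were spliced in both genotypes. Introns 1 and 3 of LHCA2 had log2 changes of 0.27 and 0.09 (adjusted p 0.098 and 0.71). LHCA2 has 13.6% of its 50-base stretches elsewhere in the genome, and its gene count did not pass the test.

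LHCB5, which encodes the linker CP26, had 3 raised introns. Intron 2 (chr4:6408558-6408646) rose from 0.0613%, 0.0745% and 0.0773% of the gene count in WT to 0.232%, 0.257% and 0.250% in prmt5 (log2 change 1.80, SE 0.13, edgeR adjusted p 6.8e-15). Intron 4 (chr4:6408917-6409022) rose from 0.278%, 0.436% and 0.354% to 0.865%, 0.863% and 0.776% (log2 change 1.24, SE 0.11, edgeR adjusted p 9.8e-12). Both were higher in every prmt5 library. Intron 3 rose less (log2 change 0.40, adjusted p 0.023; 0.145 when WT replicate 1 and 0.117 when prmt5 replicate 1 was left out). The single intron of LHCB2.3, an LHCII protein, rose from 1.36%, 1.45% and 1.33% to 3.19%, 3.14% and 2.88% of the gene count, the highest retained share of the 4 (chr3:10256151-10256269; log2 change 1.16, SE 0.10, edgeR adjusted p 3.3e-12). The related genes LHCB2.2 and LHCB2.1 had smaller changes in their first introns (log2 changes 0.41 and 0.28, adjusted p 0.0027 and 0.039). With the library size in place of the gene count, the LHCB2.2 and LHCB2.1 introns turned to -0.30 and -0.61.

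The whole raised introns of LHCA2 and LHCB5 are shown from the last 3 exon bases on the plus strand, to place the first stop codon that the reading frame would meet in them. Capitals mark the scored 5' splice site bases and that codon. In LHCB5 intron 2 that codon lies within the scored bases, starting at intron base 2.
LHCA2 intron 2, chr3:22746298-22746404: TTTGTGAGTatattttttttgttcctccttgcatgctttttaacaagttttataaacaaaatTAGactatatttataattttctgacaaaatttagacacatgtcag
LHCB5 intron 2, chr4:6408555-6408646: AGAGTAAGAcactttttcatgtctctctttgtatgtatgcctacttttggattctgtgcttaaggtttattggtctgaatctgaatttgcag
LHCB5 intron 4, chr4:6408914-6409022: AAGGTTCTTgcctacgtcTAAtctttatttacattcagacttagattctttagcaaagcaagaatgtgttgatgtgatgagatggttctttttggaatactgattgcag
Of the 22 raised introns, 21 lie in coding regions, and 20 of these hold a stop codon in frame. The exception is the second intron of PSBO2, which has none and whose length of 98 bases is not a multiple of 3. Uncalled introns in coding regions hold such a codon too, except the first intron of LHCB5 and the intron of LHCB4.2. A stop codon in frame therefore does not set the raised introns apart.

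The core subunits had raised introns too, all with log2 changes under 1. The first intron of PSAO (chr1:2641565-2641660) rose from 0.376%, 0.472% and 0.469% of the gene count in WT to 0.695%, 0.843% and 0.647% in prmt5 (log2 change 0.73, SE 0.12, edgeR adjusted p 3.5e-06). The first intron of PSBQ1 (chr4:11334723-11335091) rose from 0.352%, 0.391% and 0.340% to 0.667%, 0.601% and 0.535% (log2 change 0.74, SE 0.12, edgeR adjusted p 5.8e-06). The second intron of PSBO2 (chr3:18891470-18891567) rose from 0.349%, 0.423% and 0.431% to 0.733%, 0.654% and 0.600% (log2 change 0.73, SE 0.12, edgeR adjusted p 1.3e-05). In each of these introns the genotypes were apart in every library. PSBO2 and PSBQ1 belong to the oxygen-evolving complex.

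The second intron of PSAH2 (chr1:19455253-19455328) rose from 0.468%, 0.678% and 0.488% to 0.942%, 0.998% and 0.781% (log2 change 0.75, SE 0.13, edgeR adjusted p 2.7e-05). The second intron of LHCA1 (chr3:20340229-20340315) rose from 0.0826%, 0.131% and 0.0942% to 0.198%, 0.172% and 0.165% (log2 change 0.84, SE 0.15, edgeR adjusted p 2.8e-05). The first intron of PSAK (chr1:10722409-10722627), which encodes an antenna-facing subunit of PSI, rose from 1.02%, 1.02% and 1.07% to 1.33%, 1.44% and 1.35% (log2 change 0.40, SE 0.10, edgeR adjusted p 0.0015). The third intron of PSBS (chr1:16872158-16872236) rose from 0.161%, 0.157% and 0.169% to 0.226%, 0.264% and 0.227% (log2 change 0.55, SE 0.14, edgeR adjusted p 0.0022). All of these introns were higher in every prmt5 library than in every WT library. Relative to the median change of all introns, the first PSAK intron was at 0.032 (adjusted p 0.88) and the PSBS intron at 0.18 (adjusted p 0.45). With the library size as the base, the PSAK, PSBS, LHCA1 and PSAH2 introns were at 0.17, 0.29, 0.12 and 0.38 (adjusted p 0.38, 0.23, 0.64 and 0.063). The other raised introns were the second ones of PSAK, LHCA3 and PSBR, the first ones of PSBW, LHCB3, LHCA4 and PSAH1, and the last one of LHCA5, with log2 changes between 0.24 and 0.51. Leaving out 1 library lost the call of the PSAK, LHCA3, PSBR, PSBW, LHCB3, LHCA4, PSAH1 and LHCB2.1 introns of this weaker set for at least 2 libraries each, at adjusted p up to 0.23. Relative to the median change of all introns, or with the library size as the base, the introns of PSBR, PSBW, LHCB3, LHCA4 and PSAH1 turned below 0.

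**Figure D3:**
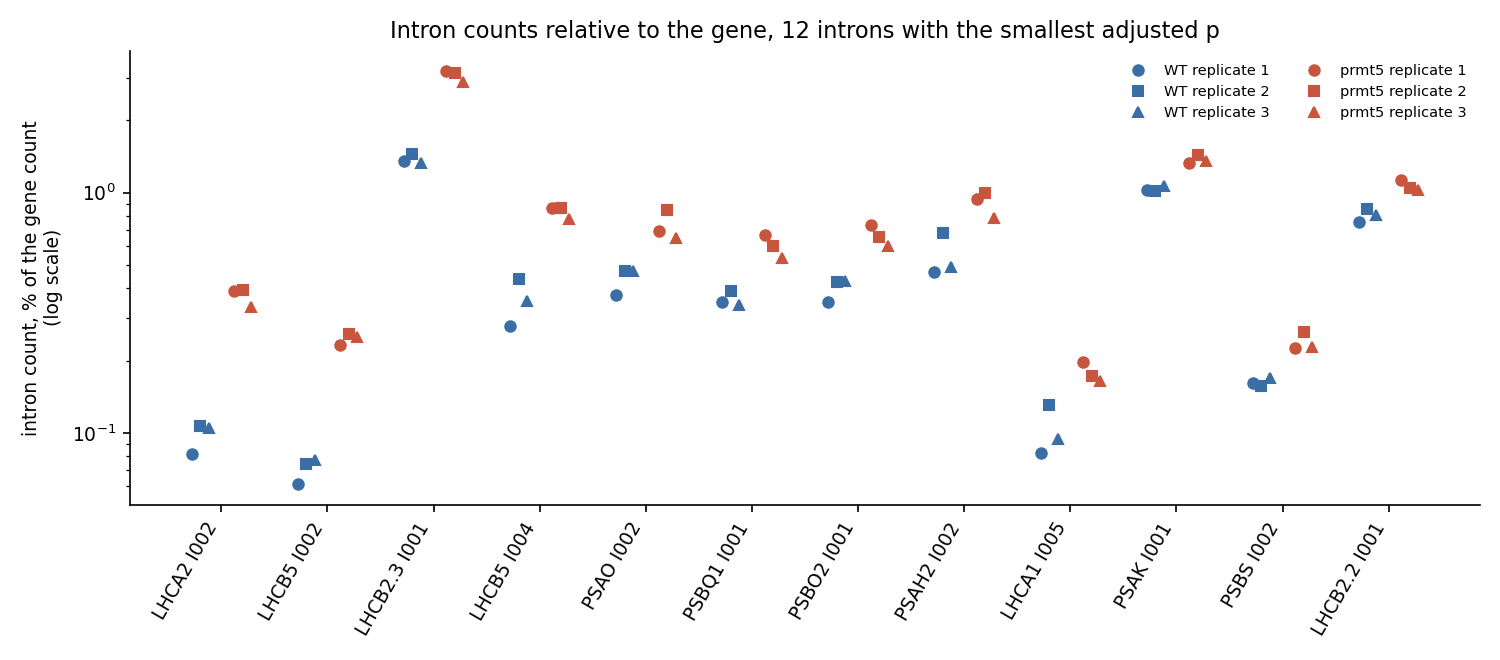
Intron count as a percentage of the gene count (log scale) in each library for the 12 introns with the smallest adjusted p; bin numbers are those of the deposited table and count from the other end in genes on the minus strand. Every prmt5 library lies above every WT library in all 12, from LHCB5 I002 (0.0613% to 0.0773% in WT, 0.232% to 0.257% in prmt5) up to LHCB2.3 I001, and on library size alone LHCB2.2 I001 turns to -0.30. The 12 were picked by adjusted p in these same libraries, so their separation adds no support to the calls. No share of separated introns over all introns tested is given.

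Over the 65 introns with a scored site, the 22 raised ones had a median score of 5.78 and the 43 uncalled ones 6.92. The 11234 raised introns of all genes with a scored site had a median of 5.54, so a lower score of raised introns was shared with the rest of the transcriptome. Of the 22 raised introns 16 scored under the median of all tested introns, and of the 43 uncalled ones 22 did. Across the 65 introns, which share libraries and genes, Spearman's rho between score and log2 change was -0.34, and across 50608 introns of all genes it was -0.35. Of 14 genes with both a raised and an uncalled intron, the intron with the largest log2 change had the lowest score in 7. These genes had only 2 to 5 scored introns each, so both can fall on the same intron by chance. The count of 7 was not tested against that. The lowest scores among the uncalled introns were those of the first intron of LHCA3 in its 5' UTR (3.25, log2 change 0.032) and of the first intron of PSBO2 (3.84, log2 change 0.20).

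**Figure D4:**
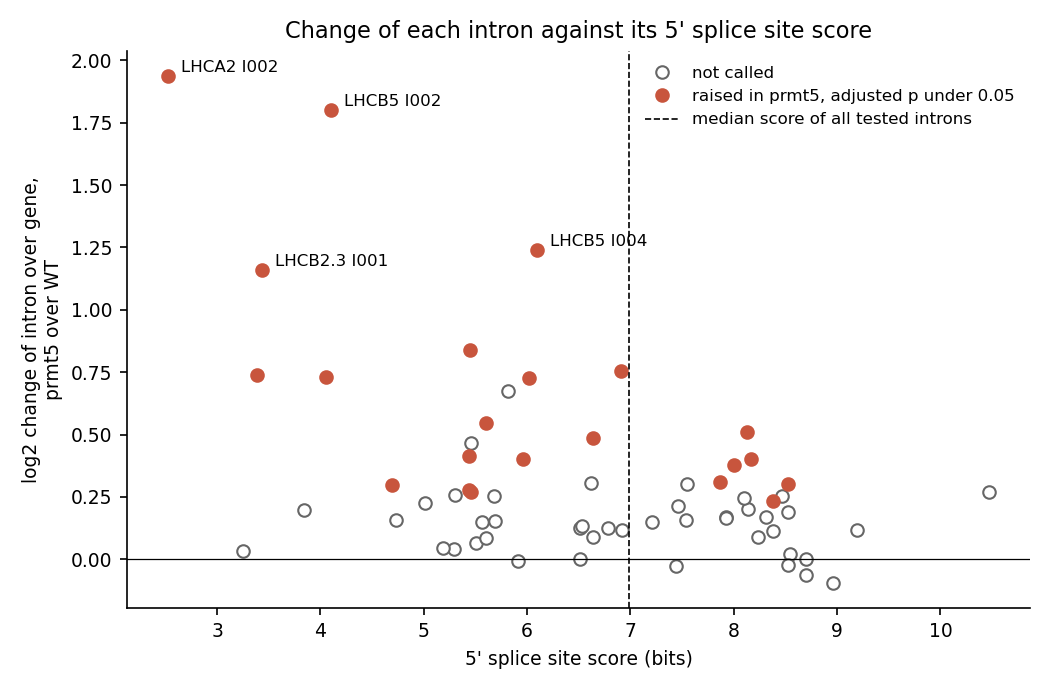
Log2 change of intron over gene count (prmt5 over WT) against the 5' splice site score in bits for 65 introns; filled points passed adjusted p under 0.05, and the dashed line is the median score of all tested introns (6.99). The 4 introns raised over 2-fold score 2.53 to 6.10, while points below a change of 0.37, the median of all introns, turn below 0 when that median is removed.

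LHCA5 differed from the other genes in its last intron, which lies in the 3' UTR. RefSeq gives 2 LHCA5 transcripts with the same coding sequence, of which one is spliced across this intron to a last exon and the other ends inside the intron. Spliced reads across it (chr1:17180440-17180700) numbered 484, 337 and 552 in WT and 148, 91 and 196 in prmt5. As a share of the gene count they were 4.82%, 5.71% and 4.66% in WT and 2.54%, 2.02% and 2.74% in prmt5, with no overlap (log2 change -1.03, SE 0.12, edgeR adjusted p 4.1e-06 over 98932 annotated junctions). It was the only one of 69 junctions of the 42 genes that changed relative to its gene, while 0.850% of all annotated junctions fell and 0.903% changed in either direction. The test was added after the data had been seen. The last exon also fell relative to the gene, from 509, 367 and 604 reads in WT to 161, 105 and 218 in prmt5 (log2 change -0.98, SE 0.12, edgeR adjusted p 0.014). It was the only one of 116 exon bins called, beside 0.124% of all exon bins, and its adjusted p was 0.089 when WT replicate 3 was left out, and 0.099, 0.13 and 0.071 when prmt5 replicate 1, 2 or 3 was, and 0.25 with the replicate number as a block.

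Reads in that last LHCA5 intron rose from 3.26%, 4.3% and 3.35% of the gene count to 5.34%, 5.05% and 4.77% (log2 change 0.49, SE 0.13, edgeR adjusted p 0.0035). Nearly all of them lay in the part that belongs to the shorter transcript, which held 324 of 327 intron reads in WT replicate 1 and 333 of 341 in prmt5 replicate 3, so they cannot be told apart from reads of transcripts that end there. With the library size in place of the gene count the change was -0.05. The part that belongs to the shorter transcript is also an exon bin, which was not called in the exon bin test (log2 change 0.49, edgeR adjusted p 0.37). The site is shown with its scored bases in capitals (plus strand, score 6.64).
LHCA5 intron 5, chr1:17180428-17180457: tctacatctTAGGTACATtcttttgtaatg
The last exon of LHCA5 overlaps AT1G45545 on the minus strand, which was at 10.5, 12.3 and 10.7 CPM in WT and at 4.22, 3.98 and 4.65 CPM in prmt5 (log2 change -1.37). Without stated strand the reads of the pair cannot be told apart in that exon, although a read spliced at the LHCA5 sites carries the LHCA5 intron.

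**Figure D5:**
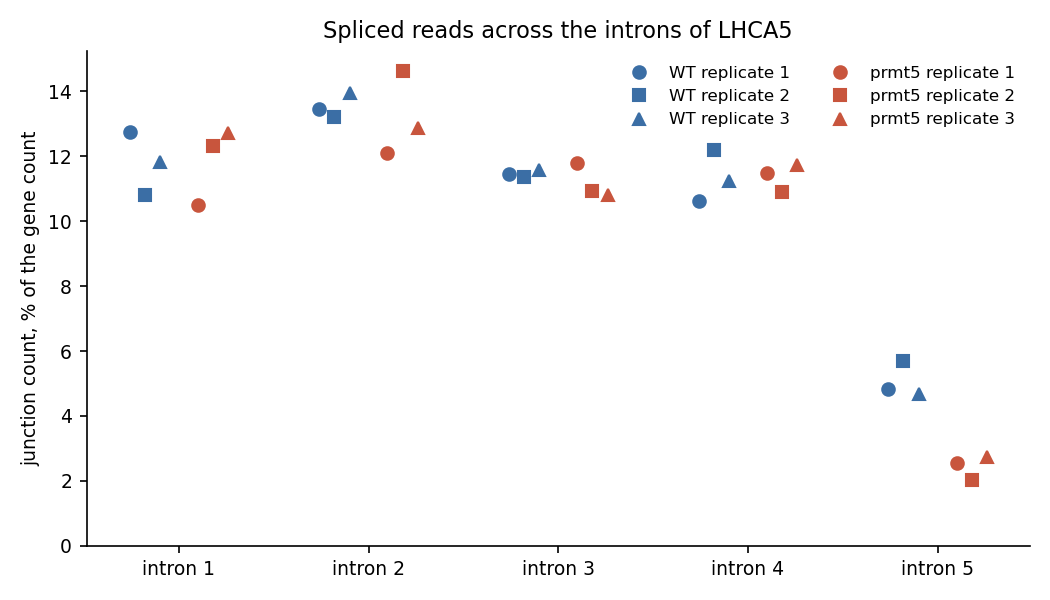
Spliced reads across each of the 5 introns of LHCA5 as a percentage of its gene count, with 1 point per library. Introns 1 to 4 overlap between genotypes, while intron 5 lies at 4.66% to 5.71% in WT and at 2.02% to 2.74% in prmt5.

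Alternative splice sites were rare in the 42 genes. Junctions outside the annotation took 0.0184%, 0.0198% and 0.0205% of their junction reads in WT and 0.0172%, 0.0152% and 0.0168% in prmt5, compared with 0.677%, 0.697% and 0.644% and 0.709%, 0.689% and 0.693% over all junctions. Of 18 junctions that share a splice site with another and passed the count filter, 0 changed within their cluster in edgeR's diffSpliceDGE test, beside 5.59% of all such junctions, and 2 had an unadjusted p under 0.05. These were rare junctions of PSBP1 (adjusted p 0.29) and PSAO (adjusted p 0.30). No other tool was run on them.

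Other gene lists of photosynthesis are read against the 15.4% of all genes tested that fell and the 17.9% that rose. Of 11 genes for electron transport and the ATP synthase 6 fell, with FD1 (ferredoxin, log2 change -0.50), ATPG (an ATP synthase subunit, -0.41) and FD2 (-0.43) first by adjusted p. Of 11 genes for targeting and regulating the antenna 3 fell, CPSRP43 (a chaperone of LHC proteins on their way to the thylakoid, -0.51), LTD (-0.24) and STN7 (the LHCII kinase, -0.26). Of 14 genes of chlorophyll synthesis 3 fell, among them GUN4 (-0.37), and PORB, a protochlorophyllide reductase, rose (0.49). Of 7 genes of LHC-like stress proteins 3 fell, OHP2 (-0.47), OHP1 (-0.29) and LIL3:2 (-0.27), and ELIP2 rose (0.88), from 3.19, 5.87 and 6.15 to 10.4, 9.20 and 8.19 CPM. Of 8 plastid-encoded photosystem genes 0 changed in edgeR's test, and 0 had an unadjusted p under 0.05. Their summed level was only 52.2 to 77.6 CPM in WT and 47.8 to 65.1 CPM in prmt5. Selection for poly(A) is known to capture plastid transcripts poorly. The median log2 changes of the lists were -0.27, -0.15, -0.16, -0.0049 and -0.24 in this order, against 0.01 over all genes tested.

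Markers of cell types were compared because whole seedlings were used, again beside 17.9% of all genes tested higher and 15.4% lower. Summed root markers were at 145 to 176 CPM in WT and at 149 to 172 CPM in prmt5, with 1 of 12 higher (EXPA7, root hairs, 0.44) and 1 lower (SCR, endodermis, -0.30). Summed markers of shoot epidermis and guard cells were at 597 to 794 CPM in WT and at 619 to 707 CPM in prmt5, with 2 of 7 higher (MYB60, 1.13, and KAT1, 0.33). Calvin cycle genes of the mesophyll were at 51069 to 56767 CPM in WT and at 46394 to 52033 CPM in prmt5, where the genotypes overlapped and 1 of 8 fell (RBCS3B, -0.37). The median log2 changes of the root, shoot epidermis and guard cell, and Calvin cycle lists were 0.25, -0.12 and -0.076, against 0.01 over all genes tested. The part of tissue proportions in the antenna changes was not tested.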

How the data were processed

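The authors deposited read counts per gene, exon bin, intron and splice junction for 3 WT and 3 prmt5 libraries, as whole numbers that were not normalized. STAR and TAIR10 are named in the submitters' processing notes. The counting program and its use of strand are not given here. Columns were matched to samples by name. Rows of original introns, which overlap other bins, were left out.

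Gene counts went into edgeR 4.0.16 under R 4.3.3 (TMM, default expression filter, robust quasi-likelihood fit, genotype as the term, two-sided), with Benjamini-Hochberg adjustment over all features and a threshold of 0.05. Introns and exon bins (mean count 5 or more, gene mean 50 or more) were tested with the log of the gene count plus 0.5 as the offset. Junctions were tested within clusters of at least 2 that share a site, and, as an addition, against their gene. Alternatives used DESeq2 1.42.0, limma 3.58.1, other scalings and filters, a replicate block and leaving out each library. Reads have no molecular identifiers. No pair of libraries of a genotype agreed within sampling noise (chi-square per degree of freedom 12.7 to 31.9).

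Coordinates are those of the deposited tables. Of 110683 annotated junctions, 98.5% were flanked by GT and AG in TAIR10.1 and 0.0% after a shift by 1 base, so sequences were read there, and strand, transcripts and UTRs taken from RefSeq. The members and gene lists were chosen with earlier results of these data known. Genes named were, per group, up to 3 called ones with the smallest adjusted p, the one with the highest level per length, and each with a called intron, exon bin or junction, and up to 3 per other list. Other named genes were chosen after their values were seen.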

Additional observations from a re-analysis of the deposited data

How the results depend on the processing

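All 42 genes stayed below 0 under every alternative run except LHCB4.3, which ranged from -0.36 without WT replicate 1 to 0.024 without prmt5 replicate 3. The 28 calls became 29 with DESeq2-type size factors, 34 with upper quartile scaling and 38 with DESeq2. They became 27 with limma-voom and 28 without the count filter. Over all genes 3467 of 22509 fell in the main test. In these settings 3593, 3802, 3601, 3457 and 3386 fell in this order, the last of 26882 genes. Of the 28 genes 13 were called under every alternative, and no such count over all genes is given here for comparison. Leaving out 1 library gave 14 to 40 called genes, 13 to 28 called introns and 0 to 3 called exon bins. In the whole data 2507 to 3783 genes then fell and 9198 to 11674 introns rose. Without a library the calls over all exon bins ranged from 41 to 213, and over all annotated junctions relative to their gene from 541 to 1060. Same-numbered libraries did not deviate together (correlations -0.11, -0.14 and -0.06), and no label pairs them. With the replicate number as a block, 15 genes, 16 introns and 0 exon bins were called. In the whole data 2588 of 22509 genes then fell, 10717 of 53291 introns rose and 37 exon bins were called. The cause of the difference from the main fit was not tested. A minimum mean of 20 counts gave 27 raised introns of the 67, beside 6363 of 18246 over all genes. In all 6544 introns and 190 junctions were then called over all genes, with fewer features tested. The junction count as the base of an intron, added after the data were seen, gave 15 raised introns of 63 tested. Over all 46181 introns tested in that way 22.6% rose. With the library size in place of the gene count the intron changes reversed to -0.055 (LHCA5), -0.040 (PSBR), -0.30 (LHCB2.2), -0.61 (LHCB2.1), -0.22 (PSBW), -0.036 (PSAH1), -0.33 (LHCA4), -0.65 (LHCB3) and -0.022 (LHCA3). With the median change of all introns removed they reversed to -0.14 (PSBR), -0.092 (LHCB2.1), -0.075 (PSBW), -0.063 (PSAH1), -0.071 (LHCA4) and -0.10 (LHCB3). Calls were also lost with the library size as the base by both PSAK introns, PSBS, PSAH2, LHCA1 and LHCB5 intron 3, and with the median change removed by both PSAK introns, PSBS, LHCA5, LHCB2.2, LHCB5 intron 3 and LHCA3, with no change of sign. The PSBQ1 share of its pair, -0.47 points in all libraries, ranged from -1.998 to 0.590 with 1 library left out.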
